A study of Mus musculus with 4 samples.

Results

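Accessible regions were collected at 8 interferon regulatory factor (IRF) genes, Irf1, Irf2, Irf3, Irf4, Irf5, Irf7, Irf8 and Irf9, in large peritoneal macrophages (LPMs) of mice with and without retinoid X receptors (RXRs). Peaks of the 4 ATAC-seq libraries that touched by at least 1 bp were merged. A merged region was given to an Irf gene when the closest curated RefSeq start site (TSS) to its midpoint was that gene's, or when it overlapped the body of the gene. This gave 86 regions out of 70744 in the series, 28 at Irf8, 21 at Irf2, 15 at Irf4, 10 at Irf1, 6 at Irf5, 3 at Irf7, 2 at Irf3 and 1 at Irf9. Each region is named below by its gene and the distance of its midpoint from the closest TSS of that gene, positive in the direction of transcription. Regions were ranked within a gene by log2 fold enrichment (the pileup of tags at a summit over the local background), averaged across only those libraries that held a peak, and the top one is called its strongest.

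IRFs are transcription factors that share a DNA-binding domain for the interferon-stimulated response element (ISRE), a direct repeat of GAAA. Irf3, Irf5 and Irf7 act downstream of pattern-recognition receptors and induce interferons, Irf9 is the DNA-binding subunit of a complex formed after interferon receptors are engaged, and Irf1 and Irf2 activate and antagonise interferon-responsive genes. Irf4 and Irf8 bind weakly alone and partner with the ETS factor PU.1 or with AP-1 factors at composite sites. Irf8 is required for monocyte and macrophage development, and Irf4 marks small peritoneal macrophages (SPMs), the monocyte-derived, MHCII-rich macrophages of the cavity.

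ATAC-seq, which reads open chromatin as the DNA that the Tn5 transposase can reach, was run on 40000 sorted LPMs per library from mice of C57BL/6 background aged 9 weeks. The controls, called Rxrab fl/fl (replicates 1 and 3), were littermates that carry loxP-flanked Rxra and Rxrb without Cre. The other genotype, LysMCre+ Rxrab fl/fl (replicates 1 and 2), carries the same alleles and Cre under the lysozyme M promoter, so that both receptors are deleted in all LysM-expressing myeloid cells and not only in LPMs. All 4 libraries have library batch 1 in their labels. The sort took F4/80-high, MHCII-low cells among CD45+ B220- CD11b+ CD115+ cells. According to the reporting summary of the study, samples that did not cluster with their group were left out, so the spread between the libraries of a genotype may be understated. Nothing in the labels says whether each library came from 1 mouse or from a pool, and p-values measure only the spread between these libraries. In bulk ATAC-seq, the share of cells in which a region is open and the degree to which it is open in each cell cannot be told apart.

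The libraries differed in how many peaks they yielded. The lists hold 38048 and 16097 peaks in the controls (replicates 1 and 3) and 65421 and 55581 in the LysMCre+ libraries (replicates 1 and 2). The lowest local background at a summit, which follows the number of tags, was 1.97 and 1.06 tags in the controls and 1.33 and 1.08 in the LysMCre+ libraries. Control replicate 3 stood apart, and 98.2% of its regions were called in all 4 libraries. Promoters of the LPM marker list were called in 10, 6, 10 and 10 of 12 genes (control replicates 1 and 3, then LysMCre+ replicates 1 and 2, the order used throughout), including Gata6 and Timd4 in every library. Promoters of the list of SPM or monocyte-derived cells, which includes Irf4, were called in 5, 2, 10 and 9 of 11 genes. Their summed fold enrichment, with uncalled promoters as 0, was 40.9, 11.5, 89.1 and 65.4. For the LPM list the sum was 91.8, 41.7, 88.1 and 78.1. The promoter of Cd74, in the SPM list, had 6.15 in control replicate 1, no peak in control replicate 3, and 4.17 and 3.78 in the LysMCre+ libraries. The promoter of Ccr2, a gene that the study counts among those usually restricted to SPMs, was called in no library. Of the 5 regions of that gene, 1, 0, 3 and 3 were called. Of the B cell list, the promoter of Ebf1 was called in 3 libraries and those of Cd79a, Cd79b, Ms4a1, Pax5 and Pou2af1 in none. Promoters were called in 1, 0, 1 and 1 of 6 genes of the T cell list, in 2, 1, 2 and 2 of 4 of the dendritic cell list and in 2, 0, 2 and 2 of 6 of the list of granulocytes and mast cells. The Csf1r promoter, in the pan-macrophage list, was called in no library, although 7, 4, 10 and 11 of 12 regions of that gene were. At the deleted genes, the strongest Rxra region had a log2 fold change of 0.028 (adjusted p = 0.953, limma) and the strongest Rxrb region one of −0.60 (adjusted p = 0.15, limma), and loss of the floxed exons cannot be read from peaks.

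The sequences under the regions that the results below turn on are shown here from the mm10 (GRCm38.p6) reference, all on the forward strand. Capitals mark matches, on either strand, to the ISRE (GAAANNGAAA), to the ETS-IRF composite element (GGAANNGAAA), to a STAT site (TTCNNNGAA), to a GATA site (AGATAA), to a PU.1 site (GAGGAAG) and to an AP-1 site (TGANTCA). The first 3 lines are the 250 bases before the start sites of Irf1, Irf2 and Irf8, from the RefSeq promoter table, in which all 8 genes were found. They are shown for their STAT matches, which none of the promoters of the other 5 genes in that table held.
Irf1 promoter, chr11:53769764-53770013: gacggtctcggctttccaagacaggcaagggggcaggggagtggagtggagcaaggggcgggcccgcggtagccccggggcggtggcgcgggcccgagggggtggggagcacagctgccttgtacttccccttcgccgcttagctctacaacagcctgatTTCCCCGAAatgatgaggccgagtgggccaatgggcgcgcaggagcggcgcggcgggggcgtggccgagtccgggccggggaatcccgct
Irf2 promoter, chr8:46739495-46739744: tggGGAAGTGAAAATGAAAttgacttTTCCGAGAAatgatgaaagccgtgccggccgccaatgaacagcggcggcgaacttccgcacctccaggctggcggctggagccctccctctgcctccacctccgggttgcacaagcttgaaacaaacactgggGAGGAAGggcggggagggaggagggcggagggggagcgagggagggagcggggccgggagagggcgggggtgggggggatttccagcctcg
Irf8 promoter, chr8:120736108-120736357: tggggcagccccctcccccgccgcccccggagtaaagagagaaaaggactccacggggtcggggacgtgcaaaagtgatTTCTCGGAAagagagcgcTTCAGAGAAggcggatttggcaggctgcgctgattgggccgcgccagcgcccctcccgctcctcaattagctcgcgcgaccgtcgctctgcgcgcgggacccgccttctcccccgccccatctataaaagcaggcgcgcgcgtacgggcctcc

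The Irf1 promoter held 1 STAT match and the Irf8 promoter 2. The Irf2 promoter held an ETS-IRF composite match and an ISRE match that share a GAAA, then a STAT match and a PU.1 match. Among 31396 RefSeq promoters of 300 bases (250 before and 50 after the start), 8.35% held the STAT pattern, 3.46% the ISRE, 2.74% the ETS-IRF composite and 13.4% the PU.1 site.

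The next 5 lines are windows of 201 bases centred on the strongest summit of a region. The region at −10.6 kb of Irf4 had higher values in both LysMCre+ libraries after centring on each library's median, without passing the test, and the one at −24.1 kb is the Irf4 window with an ISRE match. The regions of Irf5 at −2.3 kb and of Irf8 at −20.1 kb had lower centred values in both LysMCre+ libraries, also without passing it. The region at +24.8 kb is the strongest of Irf8 by the ranking given above, which leaves out control replicate 3 because it held no peak there.
Irf4 −24.1 kb, chr13:30725033-30725233: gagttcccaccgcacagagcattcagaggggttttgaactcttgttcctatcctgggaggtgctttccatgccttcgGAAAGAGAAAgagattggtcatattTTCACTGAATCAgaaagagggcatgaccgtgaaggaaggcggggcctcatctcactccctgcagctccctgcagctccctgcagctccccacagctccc
Irf4 −10.6 kb, chr13:30738516-30738716: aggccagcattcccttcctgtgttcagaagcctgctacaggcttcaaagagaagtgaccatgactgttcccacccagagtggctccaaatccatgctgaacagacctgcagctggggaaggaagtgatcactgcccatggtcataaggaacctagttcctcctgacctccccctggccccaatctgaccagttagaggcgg
Irf5 −2.3 kb, chr6:29524165-29524365: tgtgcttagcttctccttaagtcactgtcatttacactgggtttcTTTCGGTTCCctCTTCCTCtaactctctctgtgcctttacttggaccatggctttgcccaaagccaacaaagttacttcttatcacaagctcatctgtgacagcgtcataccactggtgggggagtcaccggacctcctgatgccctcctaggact
Irf8 −20.1 kb, chr8:120716077-120716277: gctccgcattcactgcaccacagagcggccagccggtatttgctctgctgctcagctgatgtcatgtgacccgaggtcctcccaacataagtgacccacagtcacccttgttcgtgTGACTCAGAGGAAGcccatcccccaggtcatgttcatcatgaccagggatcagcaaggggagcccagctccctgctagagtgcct
Irf8 +24.8 kb, chr8:120763340-120763540: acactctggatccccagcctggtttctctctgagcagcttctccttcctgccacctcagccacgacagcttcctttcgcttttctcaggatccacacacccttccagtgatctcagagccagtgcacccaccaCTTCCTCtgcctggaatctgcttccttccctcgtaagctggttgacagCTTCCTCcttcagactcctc

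At −24.1 kb of Irf4, an ISRE match was followed by a STAT match that overlaps an AP-1 match. The Irf5 window held an ETS-IRF composite match beside a PU.1 match, both on the reverse strand, the Irf8 −20.1 kb window an AP-1 match adjoining a PU.1 match, and the Irf8 +24.8 kb window 2 PU.1 matches. None of the capitalised patterns matched at −10.6 kb of Irf4. Over all 86 Irf windows, the PU.1 pattern was found in 27 (31.4%, against 21.8% of all windows of the series) and the AP-1 pattern in 11 (12.8% against 12.7%). The STAT pattern was in 6 (6.98% against 5.58%), the ETS-IRF composite in 5 (5.81% against 4.33%), the GATA pattern in 7 (8.14% against 6.44%) and the ISRE in 2 (2.33% against 3.0%). The direct repeats of AGGTCA with a gap of 1 or 5 bases, the elements named DR1 and DR5 of RXR dimers, matched in 0 Irf windows and in 0.0283% and 0.0226% of all windows. A short NF-kB pattern, GGG and CC with a gap of 5 bases and not capitalised above, was in 25 (29.1% against 36.2%). These matches are letters in a window and show no binding.

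The Irf regions lay mostly away from start sites. There were 13.8 regions per 100 kb of the stretches closest to an Irf TSS or within an Irf gene. The series had 2.87 per 100 kb over the whole length of the autosomes, stretches far from genes included. These figures have unlike bases and do not compare Irf genes with other genes. Of the 86 regions, 45 were intergenic, 34 in introns, 3 in a 3′-UTR, 2 in a 5′-UTR and 2 in a coding exon. A promoter-TSS, the stretch between 1 kb before and 200 bp after a start, held 8 of them (9.30%, against 18.1% of all regions), 1 for each gene. Their median width of 391 bp and their median GC content of 53.0% were close to those of all regions, 383 bp and 51.7%.

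The first question was whether the Irf genes gained or lost accessible regions without RXRs. Of the 86 regions, 48 and 22 were called in the controls and 76 and 75 in the LysMCre+ libraries. Both LysMCre+ libraries and neither control held 18 of them (20.9%, referred to as LysMCre+-only), a share close to the 22.8% over the series. The opposite pattern, both controls and neither LysMCre+ library, was found for 0 Irf regions and 0.0452% of all regions. All 4 libraries shared 22 Irf regions (25.6%, against 21.5% over the series). Another 25 (29.1%, against 25.5%) were missing only from control replicate 3, the library with the fewest peaks. The remaining regions included 20 called in 1 library, 11 in LysMCre+ replicate 1 and 9 in LysMCre+ replicate 2. Over the series, 19002 of the 70744 regions were called in 1 library. Of these, 12937 were in LysMCre+ replicate 1, 4724 in LysMCre+ replicate 2, and 1225 and 116 in control replicates 1 and 3.

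The LysMCre+-only regions lay away from start sites, as over the series. None of the 8 regions within 1 kb of an Irf TSS was among them, against 2 of 12 between 1 and 10 kb, 10 of 40 between 10 and 50 kb and 6 of 26 beyond 50 kb. Over the series the shares at these distances from the nearest TSS were 11.4%, 25.6%, 26.9% and 25.2%. Within 1 kb, 7 of 8 regions were open in all 4 libraries, against 49.7% over the series. The fold enrichment had a median of 6.71 and 5.40 in the 18 regions, against 13.6 and 10.8 in the same libraries for the 22 shared by all, and the medians of the LysMCre+-only regions of the series were 6.88 and 5.77. The count was also 18 without control replicate 3. It was 43 of 86 (49.2% over the series) without control replicate 1, when a single control with few peaks was left, and 29 of 78 (44.3% over the series) without LysMCre+ replicate 2. With the same number of peaks taken from each library it was 3 of 31 (7.82% over the series), the regions at +24.8 kb of Irf8, +37.1 kb of Irf4 and +53.1 kb of Irf2, and 1 Irf2 region, at +26.9 kb, was then called only in the controls (7.22% over the series).

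**Figure D1:**
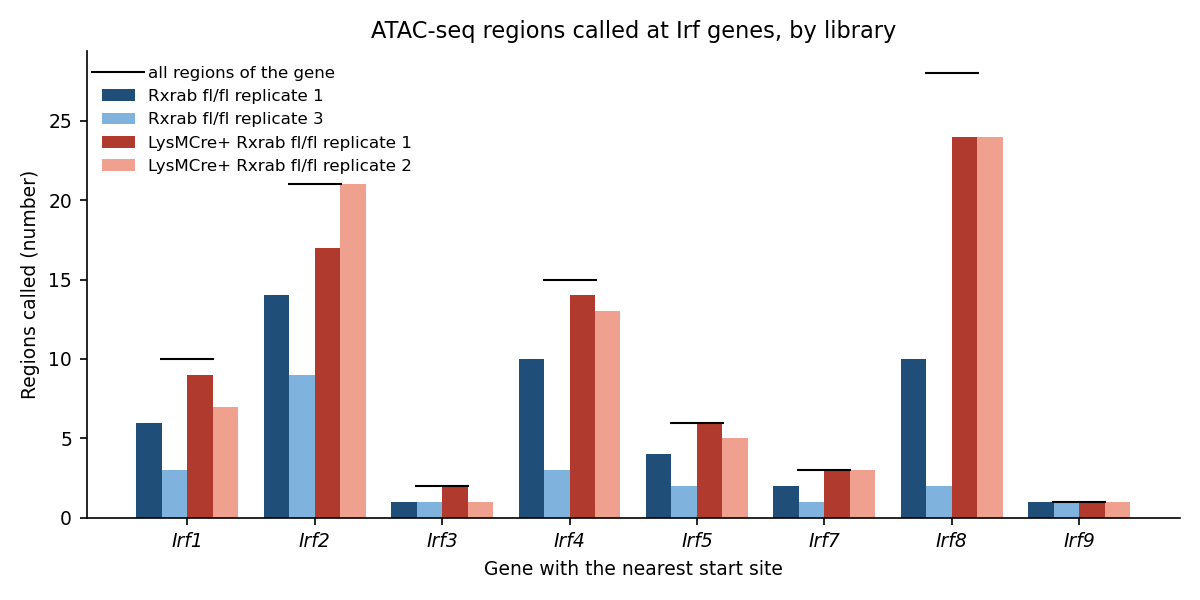
Number of merged ATAC-seq regions (y axis) at each of the 8 Irf genes (x axis) that were called in each library (bars), with the total per gene as a black line. Control replicate 3 called the fewest or as few as any other at every gene, and Irf8 had 24 regions in each LysMCre+ library against 10 and 2 in the controls.

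Irf8, the lineage factor of monocytes and macrophages, showed the widest gap between genotypes in called regions. Of its 28 regions, 10 and 2 were called in the controls and 24 and 24 in the LysMCre+ libraries. Of the 28, 11 (39.3%) were LysMCre+-only, and no other Irf gene had more than 3. As many or more such regions were found at 0.208% of the 19192 genes with a region, although genes with more regions have more room for them. Among the 359 genes with 20 regions or more, the median LysMCre+-only share was 24%, and 9.19% of these genes reached the share of Irf8. At Irf2, the only other Irf gene of that size, the share was 14.3%, and 82.5% of those genes had at least as much.

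The 11 regions of Irf8 were spread from −32.0 to +89.8 kb. By the mean of the log2 values in the LysMCre+ libraries, the strongest had a fold enrichment of 9.02 and 8.51 at +73.7 kb, 8.82 and 7.88 at +77.9 kb and 8.73 and 7.10 at −26.9 kb in those libraries. None of them was called in a control. Of the 7 Irf8 regions missing only from control replicate 3, 6 had both LysMCre+ values above that of control replicate 1, without centring. Over the series, 64.0% of the regions missing only from that library did so. Among the 6 was the one at +24.8 kb, in the intergenic stretch downstream, although the region at −20.1 kb exceeded it in control replicate 1. At +24.8 kb the fold enrichment was 6.88 in control replicate 1 and 16.5 and 12.3 in the LysMCre+ libraries, with no peak in control replicate 3. When predicted transcripts were added to the set of start sites, most of the distal regions fell closer to other transcripts, and Irf8 then had 7 regions, 2 of them LysMCre+-only. With the same number of peaks per library, 1 of its 6 regions had that pattern. The promoters of the SPM list were called in more genes in the same libraries, as given above, and their part in the calls at Irf8 was not tested.

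Neither of the 2 Irf8 regions open in all libraries passed the limma threshold. Over the TSS, the fold enrichment was 11.1 and 7.0 in the controls and 13.1 and 10.3 in the LysMCre+ libraries. Relative to each library's median over the shared regions (14.5, 7.52, 15.1 and 12.0), the values of the genotypes overlapped, and the log2 fold change was 0.024 (95% interval −0.43 to 0.48, adjusted p = 0.961, limma). On the pileup both centred LysMCre+ values were above both controls, with a change of 0.37 (adjusted p = 0.286, limma). At −20.1 kb the fold enrichment was 16.7 and 9.51 in the controls and 11.5 and 6.27 in the LysMCre+ libraries. Both LysMCre+ libraries were lower there after centring, with a log2 fold change of −0.94 (SE 0.23, adjusted p = 0.0707, limma), which missed the threshold (adjusted p below 0.05, with a log2 fold change larger than 1 in size). Without control replicate 1 or 3 the change was −1.01 and −1.21 (adjusted p = 0.00399 and 0.0413, limma), past the threshold. It was −1.21 and −0.67 without LysMCre+ replicate 1 or 2 (adjusted p = 0.146 and 0.557, limma). In each of these fits, the library left alone in its genotype is assumed to vary like the other genotype.

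**Figure D2:**
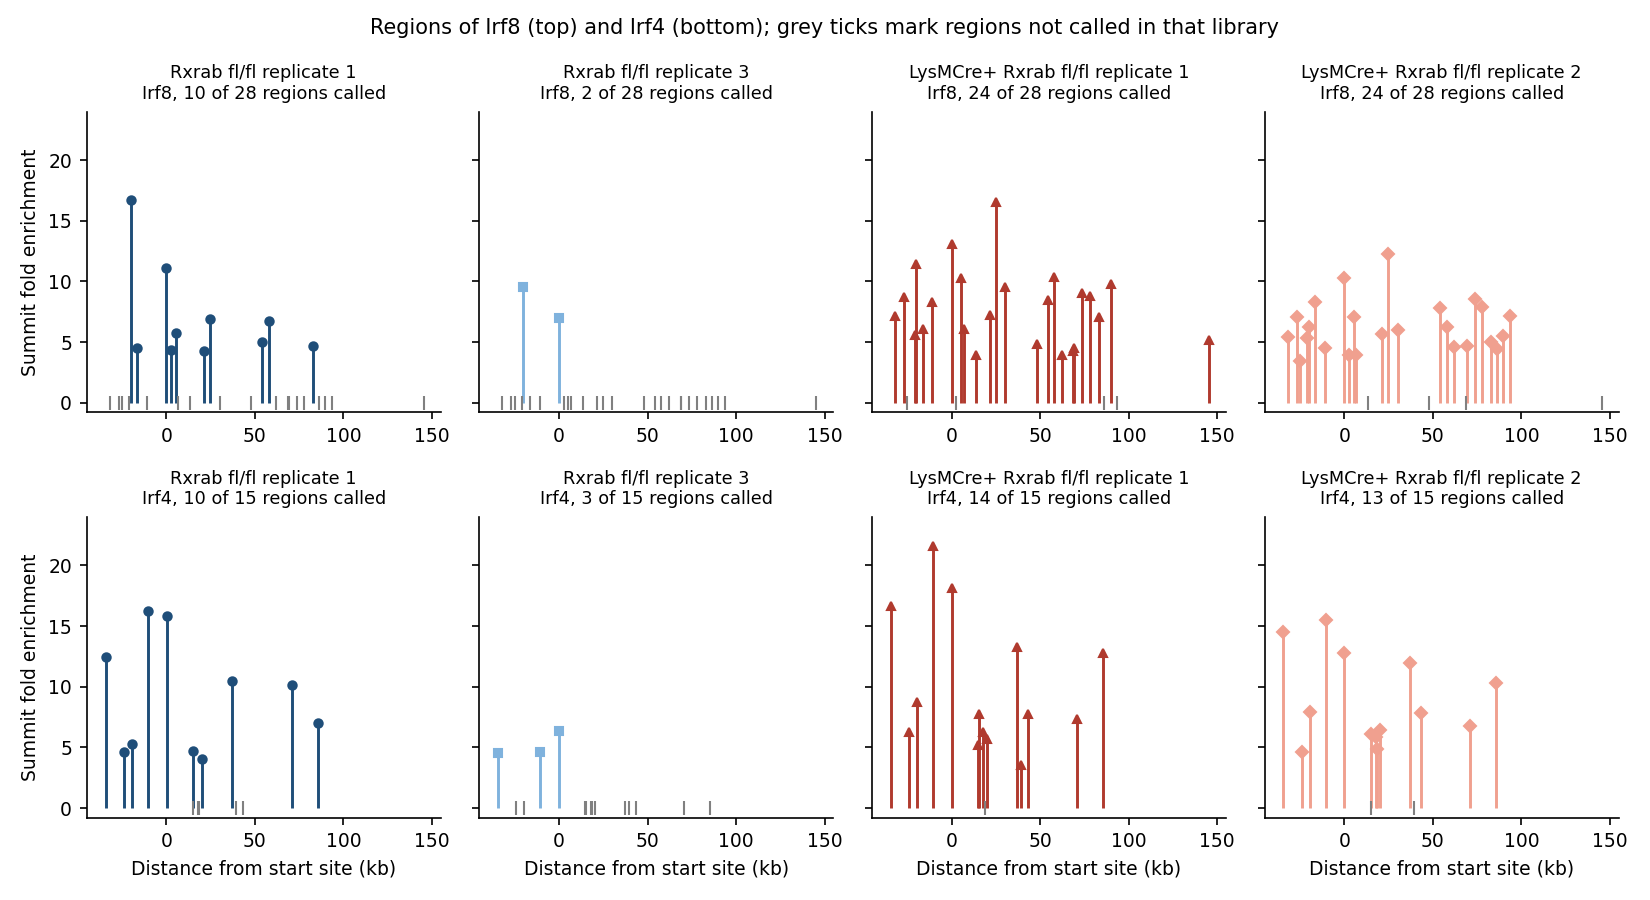
Fold enrichment at the summit (y axis, linear) of each region of Irf8 (top row) and Irf4 (bottom row) against its distance from the closest TSS of the gene (x axis, kb), with 1 panel per library and grey ticks for regions not called there. At Irf8 the LysMCre+ panels hold 24 regions each, against 10 and 2 in the control panels, and at Irf4 they hold 14 and 13 against 10 and 3.

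Irf4, the factor tied to SPMs, was accessible in the controls too. Of its 15 regions, 10 and 3 were called in the controls and 14 and 13 in the LysMCre+ libraries. LysMCre+-only were 2, at the end of the gene (+17.8 kb) and downstream of it (+43.3 kb), with fold enrichments of 6.25 and 5.82 and of 7.78 and 7.80. Another 7 were missing only from control replicate 3, and in 5 of them both LysMCre+ libraries exceeded control replicate 1. Over all Irf genes this held for 14 of 25 (56%) and over the series for 64.0%.

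The pair of upstream Irf4 regions that all libraries shared had higher centred values in both LysMCre+ libraries, and its promoter overlapped between genotypes on the centred fold enrichment. At −34.4 kb, in the intergenic stretch before the gene, the fold enrichment was 12.4 and 4.58 in the controls and 16.7 and 14.5 in the LysMCre+ libraries. At −10.6 kb, the strongest region of the gene, it was 16.2 and 4.64 in the controls and 21.6 and 15.5 in the LysMCre+ libraries. Control replicate 3 was far below control replicate 1 at both regions, also after centring, while the LysMCre+ libraries were close to each other. The log2 fold changes were 0.67 (SE 0.23, adjusted p = 0.122, limma) and 0.71 (SE 0.27, adjusted p = 0.154, limma), neither past the threshold. At −10.6 kb the change was 1.14 without control replicate 1 (adjusted p = 0.00117, limma) and −0.057 without control replicate 3 (adjusted p = 0.895, limma). At −34.4 kb it was 0.92 and 0.093 (adjusted p = 0.00341 and 0.825, limma), so at both regions the difference rested on control replicate 3. Without a LysMCre+ library the change was between 0.61 and 0.78, not past the threshold. Over the TSS the fold enrichment was 15.9 and 6.37 in the controls and 18.1 and 12.8 in the LysMCre+ libraries, with a log2 fold change of 0.23 (SE 0.22, adjusted p = 0.556, limma). On the centred pileup both LysMCre+ libraries were above both controls, with a log2 fold change of 0.11 (adjusted p = 0.760, limma). Among 590 genes with a number of regions within 2 of that of Irf4, the pattern of calls over the 4 libraries was identical at Cyfip1 and differed by 1 call at Gm20110, Plekha2, Reep3 and Tmem65.

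Irf5, which drives inflammatory cytokines in macrophages, had 6 regions, 4 and 2 called in the controls and 6 and 5 in the LysMCre+ libraries. At its strongest region, 2.3 kb upstream of the first TSS, the fold enrichment was 16.8 and 11.9 in the controls and 9.86 and 9.35 in the LysMCre+ libraries. Here both LysMCre+ values were below both control values even before centring, which held at 1 other shared Irf region, at +26.9 kb of Irf2. The log2 fold change was −0.93 (SE 0.23, adjusted p = 0.0705, limma), and −1.15 and −1.04 without control replicate 1 or 3 (adjusted p = 0.00126 and 0.0463, limma), past the threshold. Without LysMCre+ replicate 1 or 2 it was −0.80 and −1.05 (adjusted p = 0.391 and 0.277, limma). At the second TSS of Irf5 the values were 6.54 and 5.33 in the controls and 10.3 and 8.43 in the LysMCre+ libraries, the opposite order before centring. After centring the genotypes overlapped there, with control replicate 3 highest, and the log2 fold change was 0.29 (SE 0.24, adjusted p = 0.489, limma). On the summit pileup that change was 0.71 (adjusted p = 0.0681, limma), more than 1.5 times as large. No region was called over the first TSS. A region at +11.2 kb, in an intron, was LysMCre+-only, with a fold enrichment of 5.00 and 3.04.

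Irf3 and Irf7, the other inducers of interferon, had few regions. The Irf3 promoter is shared with Bcl2l12, whose TSS is closer to the midpoint. Its fold enrichment was 11.9 and 7.52 in the controls and 11.7 and 9.45 in the LysMCre+ libraries (log2 fold change −0.21, SE 0.21, adjusted p = 0.575, limma). A weaker region at +1.1 kb of Irf3, in a coding exon, was called in LysMCre+ replicate 1 only. The Irf7 promoter had 7.16 in control replicate 1, no peak in control replicate 3, and 5.85 and 4.99 in the LysMCre+ libraries, so it was the 1 Irf promoter missing from a library. The strongest Irf7 region, at −2.6 kb and overlapping Cdhr5, had 12.5 and 6.87 in the controls and 13.4 and 12.7 in the LysMCre+ libraries. Its log2 fold change was 0.13 (SE 0.21, adjusted p = 0.751, limma) on the fold enrichment and 0.64 (SE 0.24, adjusted p = 0.111, limma) on the pileup. A region in a coding exon of Irf7, at +1.3 kb, was LysMCre+-only, with 3.16 and 3.96.

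Irf9, the DNA-binding subunit of the interferon-activated complex, had 1 region, over its TSS. The fold enrichment was 13.7 and 7.01 in the controls and 18.2 and 11.3 in the LysMCre+ libraries. After centring, the genotypes overlapped, with a log2 fold change of 0.18 (SE 0.22, adjusted p = 0.648, limma).

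**Figure D3:**
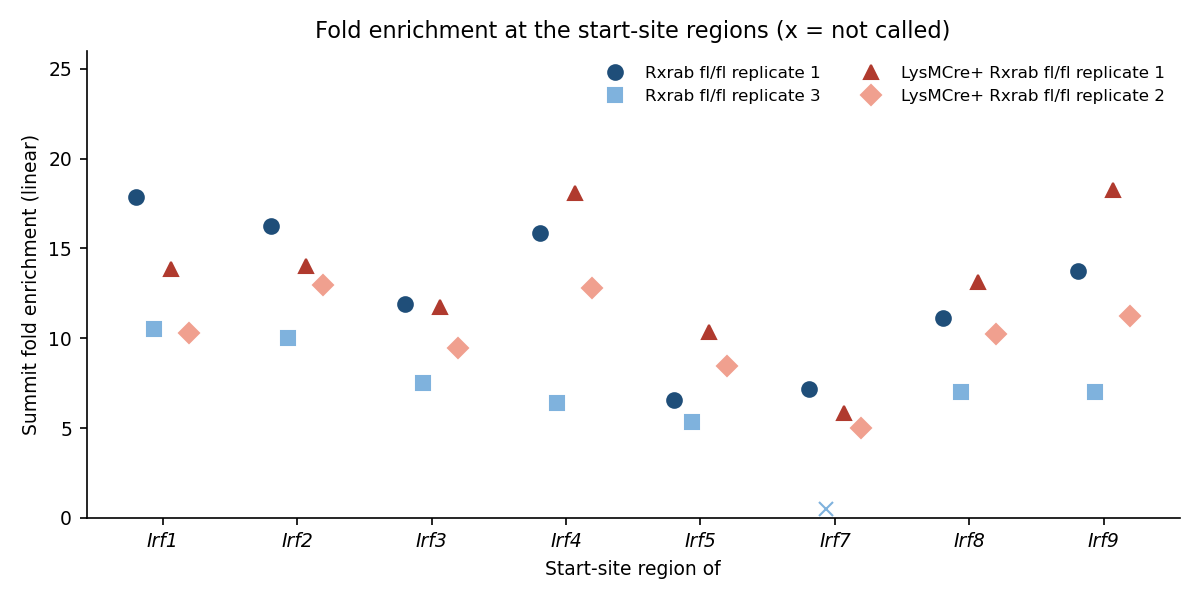
Fold enrichment at the summit (y axis, linear scale from 0) of the region at the start site of each Irf gene (x axis), 1 point per library, with a cross where no peak was called. Values are not centred, and control replicate 3, whose median over the shared regions was 7.52, lies lowest or nearly so at each gene.

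Irf1, an interferon-gamma-induced activator, had lower centred values in both LysMCre+ libraries at all 3 of its shared regions. Over the TSS, where the promoter shown above holds a STAT match, the fold enrichment was 17.9 and 10.5 in the controls and 13.9 and 10.3 in the LysMCre+ libraries. At +24.6 kb it was 17.7 and 11.0 in the controls and 11.6 and 12.0 in the LysMCre+ libraries. At +35.5 kb, the strongest region, it was 20.4 and 13.5 in the controls and 14.9 and 13.2 in the LysMCre+ libraries. Before centring the genotypes overlapped at all 3, and after centring at none of them. The log2 fold changes were −0.57, −0.62 and −0.61 (SE 0.21 to 0.22), with unadjusted p = 0.0174, 0.0159 and 0.0147 and adjusted p = 0.148, 0.142 and 0.138 (limma). On the pileup the change at the TSS was −0.091 (adjusted p = 0.823, limma), far smaller, while that at +35.5 kb was −0.80 (adjusted p = 0.0572, limma). Both distal regions lie in introns of the noncoding gene Gm12216, whose TSS is farther from them. None of the 10 Irf1 regions was LysMCre+-only.

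Irf2, which competes with Irf1 for the same element, had 9 regions shared by all libraries, the most of any Irf gene, and 14 and 9 regions were called in the controls and 17 and 21 in the LysMCre+ libraries. Over the TSS, close to the noncoding gene Gm16675, the fold enrichment was 16.3 and 10.0 in the controls and 14.0 and 13.0 in the LysMCre+ libraries (log2 fold change −0.29, SE 0.21, adjusted p = 0.444, limma). At +26.9 kb, in an intron, it was 10.4 and 5.51 in the controls and 5.36 and 4.77 in the LysMCre+ libraries. This was the lowest log2 fold change of the 22 shared regions, −0.95 (SE 0.21, adjusted p = 0.0629, limma), and −1.27 without control replicate 3 (adjusted p = 0.0308, limma), past the threshold. Without control replicate 1 it was −0.97, and without LysMCre+ replicate 1 or 2 it was −0.87 and −1.03 (adjusted p = 0.350 and 0.291, limma), not past it. On the full set, the change on the pileup was −0.13 (adjusted p = 0.781, limma). Lower centred values in both LysMCre+ libraries were also found at +49.9 and +65.1 kb, in introns, and at +112.0 kb, downstream of the gene, with log2 fold changes of −0.40, −0.50 and −0.23. Of these, +49.9 and +112.0 kb were positive on the pileup (0.30 and 0.47). The strongest Irf2 region, at +71.7 kb in an intron, had 21.0 and 11.1 in the controls and 21.9 and 21.1 in the LysMCre+ libraries, with a log2 fold change of 0.13 (SE 0.21, adjusted p = 0.747, limma). The 3 LysMCre+-only regions, at +16.2, +30.1 and +112.8 kb, had a fold enrichment between 4.66 and 7.37.

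Across the 22 regions shared by all libraries, no Irf region passed the limma threshold. It called 0 higher and 0 lower, against 0.0395% and 0.0461% of the 15199 shared regions of the series. At an unadjusted p under 0.05, 2 were higher, both at Irf4, and 6 were lower, the 3 of Irf1 and those at +26.9 kb of Irf2, −2.3 kb of Irf5 and −20.1 kb of Irf8, against 8.87% and 13.1% of the shared regions. The centred values of the genotypes did not overlap at 13 of the 22, with the LysMCre+ libraries higher at 2 and lower at 11, against 22.3% and 32.9% over the series. With 2 libraries per genotype, an exact permutation test of a single region cannot give a two-sided p below 0.333. The median log2 fold change of the 22 was −0.13, beside −0.087 for all shared regions.

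The direction of the balance depended on the measure. On the summit pileup, a whole number of tags worked out from each peak's p-value and enrichment, 0 Irf regions passed the limma threshold in either direction, against 2.25% higher and 4.54% lower among 15195 regions of the series. At an unadjusted p under 0.05, 4 were higher and 4 lower (12.2% and 20.3% over the series). The groups did not overlap at 9 regions with the LysMCre+ libraries higher and 5 with them lower (24.9% and 36.8% over the series), and the median log2 fold change was 0.14 beside −0.10 for all. The lowest adjusted p on the pileup was that of Irf8 −20.1 kb, 0.0467 (limma), with a log2 fold change of −0.85, which did not reach 1 in size. The regions at −34.4 and −10.6 kb of Irf4, −2.3 kb of Irf5, −20.1 kb of Irf8, +65.1 kb of Irf2 and +24.6 and +35.5 kb of Irf1 had the same direction and no overlap on both measures.

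**Figure D4:**
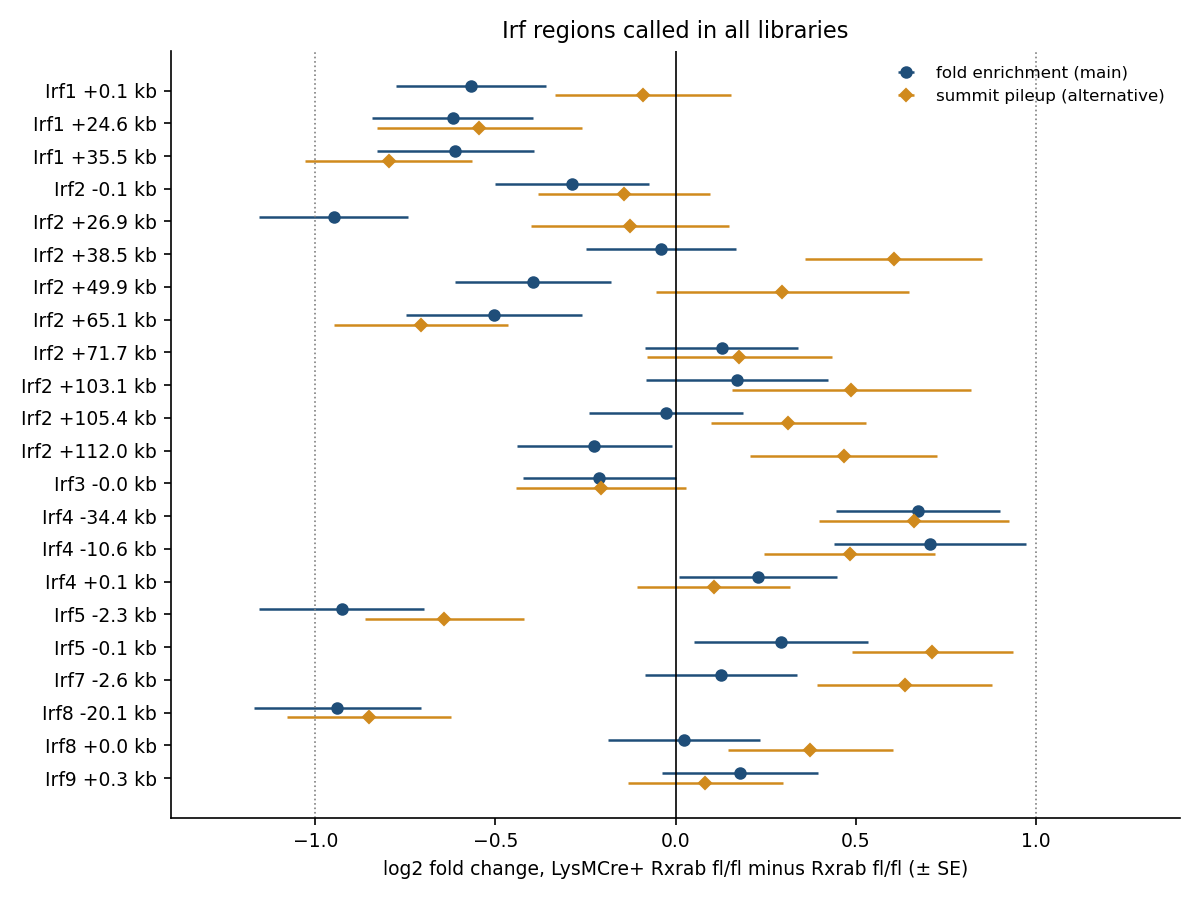
Log2 fold change, LysMCre+ Rxrab fl/fl minus Rxrab fl/fl (x axis), with its standard error from limma, for the 22 Irf regions called in all libraries (y axis), on the fold enrichment (circles) and on the summit pileup (diamonds), with dotted lines at the threshold of 1 in size. The regions of Irf4 at −34.4 and −10.6 kb lie above 0 and those of Irf5 at −2.3 kb and Irf8 at −20.1 kb below 0 on both measures, and no point lies beyond a dotted line.

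Other genes of the IRF pathway, 49 genes that act upstream of IRFs, bind or regulate them, or are induced by them, had 282 regions. LysMCre+-only were 48 (17.0%, below the 22.8% over the series) and only in the controls 0. Of the 72 shared by all libraries, 0 passed the limma threshold (0.0395% higher and 0.0461% lower over the series). At an unadjusted p under 0.05 there were 8 in each direction, against 8.87% higher and 13.1% lower among the shared regions of the series. Higher in the LysMCre+ libraries were regions at Ikbke, a kinase that phosphorylates IRF3 and IRF7, at Oas2, an interferon-induced sensor of double-stranded RNA, and at Trim21, an IRF ubiquitin ligase. The fold enrichment was 13.0, 5.19, 22.7 and 17.7 at −14.7 kb of Ikbke (log2 fold change 0.92, adjusted p = 0.0658, limma). It was 11.3, 6.42, 20.7 and 19.7 over the Oas2 TSS (0.88, adjusted p = 0.0673, limma) and 18.8, 6.80, 26.4 and 26.3 over the Trim21 TSS (0.85, adjusted p = 0.0849, limma). All 3 had both LysMCre+ values above both controls before centring, as did 20.7% of the shared regions of the series. They were picked as the largest rises, so this order follows in large part from the choice and is no separate evidence. Lower were the TSS of Gbp2, an interferon-induced GTPase, and a region at Irf2bpl, a relative of the IRF2-binding proteins, with log2 fold changes of −0.68 and −0.63 (adjusted p = 0.220 at each, limma). On the pileup, the regions of Ikbke (1.29) and Oas2 (1.24) passed the threshold as higher (adjusted p = 0.0212 and 0.0255, limma). These were the 2 shared pathway regions that passed as higher, and 1 passed as lower. Over the series, 2.25% passed as higher and 4.54% as lower on that measure.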

How the data were processed

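ATAC-seq peaks of 4 LPM libraries, 2 per genotype, were used. Reads had been trimmed, aligned to mm10 with Bowtie2 as pairs, and filtered for duplicates, mapping quality and the mitochondrial, X and Y chromosomes. The authors called peaks library by library in MACS2 2.1.1 (reads extended to 200 bp, q value of 0.05) and dropped blacklisted stretches. The deposited fold enrichment is the ratio of the summit pileup to its local background, each with a pseudocount of 1, and is not scaled between libraries. Each deposited peak also has the −log10 of its p-value and q-value and a summit offset. The differential test of the study used read counts. Counts were not analysed here, so the peak measures were compared on a log scale.

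Regions were annotated with RefSeq curated transcripts of the same build. Log2 fold enrichment of regions shared by all 4 libraries was centred per library (median) and compared by limma 3.58.1 (lmFit, eBayes; R 4.3.3), with Benjamini-Hochberg adjustment over all 15199 regions. Whole-number pileups were solved to a tolerance of 0.001 in −log10 p for nearly all peaks. Calls of weak regions are uncertain, since a peak at the threshold in one library can miss it in another. The part of depth in the calls was not tested. Scripts were tested on simulated data (pandas 2.3.3, scipy 1.17.1 and numpy 2.4.6 in Python 3.11.15). Members, gene lists and tests were chosen with earlier results of these data known. The regions described are those at each promoter-TSS, the strongest of each gene, those called in one genotype only, and those whose groups did not overlap. Of the pathway list, genes are named among the 3 largest changes in each direction past an unadjusted p of 0.05. A few items that these rules select are not reported here. The alternatives were another q value, equal peak numbers, other merging, predicted transcripts, other normalizations, the pileup, a mean-variance trend, regions called in each genotype, and each library left out.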

Additional observations from a re-analysis of the deposited data

How the results depend on the processing

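The count of 18 Irf regions held by the LysMCre+ libraries alone stayed within 1.5 times of that value with a q value of 0.01 and with other merging. It moved to 3 of 31 with the same number of peaks per library (7.82% over the series) and to 8 of 61 with predicted transcripts among the start sites (22.8%), and ranged from 18 to 43 when a library was left out (22.9% to 49.2% over the series). Called only in the controls were 0, or 1 of 31 with the same number of peaks (7.22% over the series), and 0 to 0 with a library left out. Past the limma threshold were 0, or 1 (Irf8 +24.8 kb, log2 fold change 1.16) among regions called in each genotype, and 0 to 3 with a library left out. Over the series it called 13 of 15199 regions, 2887 of 35577 called in each genotype, 789 of 15231 without control replicate 1 and 1182 of 33268 without control replicate 3. Without control replicate 1 these were Irf4 −10.6 kb, Irf5 −2.3 kb and Irf8 −20.1 kb, and without control replicate 3 Irf2 +26.9 kb, Irf5 −2.3 kb and Irf8 −20.1 kb. Regions with both LysMCre+ values higher numbered 2 of 22 (22.3% over the series), or 9 on the pileup (24.9%), 4 with quantile normalization (25.7%) and 5 without centring (20.7%). Those with both lower numbered 11 (32.9% over the series), or 5 on the pileup (36.8%) and 2 without centring (3.57%). The cause was not tested, beyond the fewer peaks, start sites or samples of each alternative. Of 205 values for 16 single regions, 187 kept direction and call, 6 passed the threshold only there and 12 reversed. Without centring, Irf2 −0.1 kb was 0.080 and Irf3 −0.0 kb 0.16. With a library left out, the range included 0 at Irf2 +71.7 kb (−0.19 to 0.27), Irf4 −10.6 kb (−0.057 to 1.14), Irf4 +0.1 kb (−0.29 to 0.41), Irf5 −0.1 kb (−0.032 to 0.31), Irf7 −2.6 kb (−0.16 to 0.25), Irf8 +0.0 kb (−0.17 to 0.036) and Irf9 +0.3 kb (−0.17 to 0.36). No paired analysis was possible because the genotypes share only replicate number 1. With 2 libraries per genotype, small differences in accessibility were not detectable.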
